A study of Mus musculus with 20 samples.

Results

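The circadian clock genes described here are 10 of the 55401 genes in the deposited count table, matched there by gene name. They comprise 3 morning genes (Arntl, Npas2 and Clock), whose mRNA is known to peak around dawn in mouse organs, and 7 evening genes (Per1, Per2, Per3, Nr1d1, Nr1d2, Dbp and Ciart), whose mRNA peaks later in the day. RNA was sequenced from the heart, kidney, spleen, liver and small intestine of 8-week-old female mice on a C57BL/6J background. Mice were either wild type (WT) or Nsun6 knockouts (KO), in which CRISPR editing had removed exons 3 and 4 of Nsun6, an RNA methyltransferase gene, in the whole body. Each of the 5 organs had 2 WT and 2 KO libraries, 20 in all, and the total count of a library ranged from 15897446 to 44508197 with a median of 28513950. The time of day of tissue collection was not given in the sources used here, nor was it stated whether organs with the same replicate number came from the same animal. A replicate number is therefore only a name, although the fits over all organs also compared libraries by their number. Those fits treated the libraries of different organs as independent. All p-values below measure only the spread between these libraries and not that between animals.

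The mammalian clock is a feedback loop in which the proteins of Clock or its paralogue Npas2 pair with that of Arntl (also called Bmal1) and switch on genes that carry E-box sequences. Among these are the Period genes (Per1, Per2 and Per3), whose proteins repress that pair, and Nr1d1 and Nr1d2 (REV-ERBα and REV-ERBβ), nuclear receptors that repress Arntl, so that Arntl and its targets cycle in opposite phase. Dbp encodes a clock-controlled transcription factor that acts on D-box sequences, Ciart encodes a repressor of the Clock and Arntl pair, and Per1 also responds to glucocorticoid hormone.

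On the mouse genome build GRCm38, the morning genes lie at chr7:113207465-113314126 (Arntl), chr1:39193731-39363236 (Npas2) and chr5:76209868-76304792 (Clock). The Period genes lie at chr11:69095217-69109960 (Per1), chr1:91415982-91459324 (Per2) and chr4:151003652-151044665 (Per3). Nr1d1 lies at chr11:98767932-98775333, Nr1d2 at chr14:18204054-18239127, Dbp at chr7:45705088-45710203 and Ciart at chr3:95878503-95882251. Each value below is the sum over all exons of a gene. Nr1d1 shared 263 exon bases (8.55% of its exon length) with Thra on the opposite strand, and Dbp shared 539 (18.01%) with Sphk2 on the opposite strand, so part of their reads may have been lost or assigned to the partner gene.

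Promoter windows of 300 bases (250 before and 50 after a start site, RefSeq, GRCm38.p6) were found for 9 of the 10 members and were searched on both strands for the E-box CACGTG, its variant CACGTT, the D-box TTATGTAA or TTACGTAA and the ROR element core TAGGTCA or TGGGTCA, the sequence that Nr1d1 and Nr1d2 bind. Of 27025 genes, 8.09% held the E-box, 5.44% the variant, 1.23% the D-box and 7.35% the ROR core in such a window. Ciart held 3 E-boxes and Per1 held 1, Per3 held 2 D-boxes, Nr1d1 held 1 variant E-box, and Arntl held 1 ROR core 30 bases after its second annotated start site. The 4 windows below are shown because they carry the sequence elements through which the loop described above is known to act. They are the windows of Ciart at chr3:95882179-95882478 (− strand), Per1 at chr11:69098699-69098998 (+ strand), Per3 at chr4:151044616-151044915 (− strand) and Arntl at chr7:113207261-113207560 (+ strand), each written 5′ to 3′ on the strand of its gene, with the matched elements in capitals. A match is a description of the letters and not evidence of a bound site.
Ciart: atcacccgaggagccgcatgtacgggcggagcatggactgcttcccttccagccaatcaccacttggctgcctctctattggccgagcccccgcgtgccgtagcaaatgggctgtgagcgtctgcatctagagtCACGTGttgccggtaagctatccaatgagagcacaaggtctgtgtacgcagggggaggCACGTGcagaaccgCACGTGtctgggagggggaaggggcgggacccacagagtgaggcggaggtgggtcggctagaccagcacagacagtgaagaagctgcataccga
Per1: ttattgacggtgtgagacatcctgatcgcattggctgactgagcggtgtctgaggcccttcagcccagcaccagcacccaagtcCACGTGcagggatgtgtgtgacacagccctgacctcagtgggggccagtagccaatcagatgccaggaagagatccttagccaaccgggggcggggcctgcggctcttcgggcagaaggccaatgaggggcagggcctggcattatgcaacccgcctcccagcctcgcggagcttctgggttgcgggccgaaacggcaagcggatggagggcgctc
Per3: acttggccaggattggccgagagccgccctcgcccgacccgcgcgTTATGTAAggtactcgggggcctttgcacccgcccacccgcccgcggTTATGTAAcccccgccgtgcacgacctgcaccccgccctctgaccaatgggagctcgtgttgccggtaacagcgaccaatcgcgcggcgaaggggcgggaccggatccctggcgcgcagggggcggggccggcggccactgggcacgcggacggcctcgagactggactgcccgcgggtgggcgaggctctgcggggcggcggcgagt
Arntl: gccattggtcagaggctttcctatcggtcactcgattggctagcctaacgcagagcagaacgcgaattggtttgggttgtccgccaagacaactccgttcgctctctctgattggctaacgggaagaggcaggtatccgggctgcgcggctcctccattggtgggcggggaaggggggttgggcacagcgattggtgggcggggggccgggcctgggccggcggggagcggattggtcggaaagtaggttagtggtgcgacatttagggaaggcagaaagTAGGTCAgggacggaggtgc

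Nsun6 itself was low in every library, between 3.32 and 9.82 CPM (counts scaled to the effective size of each library). In each pair of values below, replicate 1 comes first. Nsun6 was at 9.82 and 6.19 CPM in WT and 9.68 and 5.24 CPM in KO in the small intestine, at 7.23 and 4.83 CPM in WT and 4.03 and 4.56 CPM in KO in the liver, and at 6.07 and 4.36 CPM in WT and 4.03 and 6.64 CPM in KO in the spleen. In the kidney it was at 5.44 and 5.84 CPM in WT and 3.91 and 3.32 CPM in KO, and in the heart at 7.03 and 6.65 CPM in WT and 5.997 and 5.50 CPM in KO. The KO values lay below the WT values without overlap in the liver, kidney and heart but not in the small intestine and spleen, and the log2 fold change of KO against WT ran from -0.67 ± 0.43 (SE) in the kidney to 0.08 ± 0.34 (SE) in the spleen. The counts were summed over all exons of Nsun6, the 2 deleted ones among the rest, so its level checks the labels only weakly. The defining markers of each labelled organ were detected in its 4 libraries. Some libraries nevertheless stood apart and bear on the clock genes. In the small intestine, Fabp6, an ileal bile acid binding protein, was at 6810.4 and 0.238 CPM in WT and 6261 and 0.412 CPM in KO, whereas Lct, the lactase of the upper intestine, was at 0.0291 and 683 CPM in WT and 0.145 and 1889 CPM in KO. Both replicate 1 libraries therefore carried markers of the distal intestine and both replicate 2 libraries markers of the proximal intestine, and replicate number and gut position cannot be told apart in this organ.

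The spleen WT replicate 2 library held 2685 CPM of the liver gene Alb, 1.06% of the mean liver level, against 3.68 to 136 CPM in the other spleen libraries. All 4 genes of the liver list were detected in it, with a summed level of 3038 CPM against 5.46 to 153 CPM in the other 3. At that share, liver RNA would make up 0.410% of the Arntl value, 10.2% of the Per2 value and 13.4% of the Ciart value of that library.

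The kidney WT replicate 2 library stood further apart. Genes of high GC content were lower relative to genes of low GC content in it (a difference of -1.08 in log2 CPM centred on the organ) than in the other 3 kidney libraries, where the difference lay between 0.15 and 0.50. Nr1d1 was at 43.2 and 2.23 CPM in WT and 31.5 and 24.4 CPM in KO. A further 7 members were also below the remaining 3 kidney libraries, whereas Clock and Nr1d2 were above them. Clock stood at 107 CPM against 78.8 to 101 CPM, and Nr1d2 at 232 against 173 to 228 CPM. These 2 members have the lowest GC contents of the set, 40.9% and 41.8% of the longest transcript, and the others lie between 48.2% and 61.6%. Across the 9 members with a count in that library, the log2 ratio to the mean of the other 3 libraries and GC content had a Pearson correlation of -0.67, given as a description of genes that share a library. Dbp and Per1, the members with the highest GC contents, were at 36.3% and 33.7% of that mean, and Nr1d1 at 6.77%. The part of base composition in the low kidney values was not tested. The plot of the ratio against GC content shows each member.

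**Figure D1:**
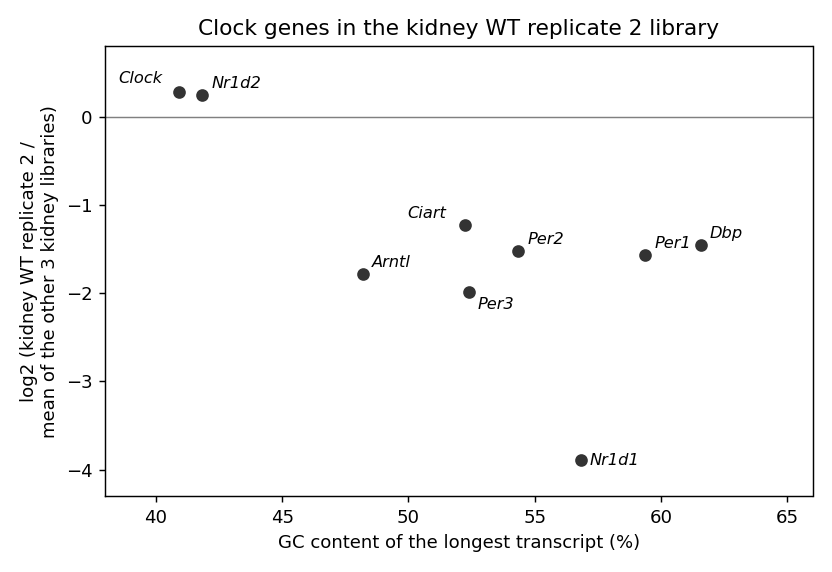
Each point is 1 clock gene in the kidney, with the GC content of its longest transcript on the x axis (%) and the log2 ratio of the WT replicate 2 library to the mean of the other 3 kidney libraries on the y axis. Clock and Nr1d2 lie just above 0, Nr1d1 lies at -3.89, and the other 6 lie between -1.99 and -1.23. Npas2, with no count in the WT replicate 2 library, is left out.

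With TMM scaling, the spleen had the lowest mean level of 9 of the 10 clock genes, the exception being Arntl, whereas with counts scaled to the library totals alone, or in TPM (reads per exon length, scaled to the same sum in each library), it had the lowest of 7, Npas2 and Per1 being the further exceptions. The TMM factors of the spleen libraries were 1.46 to 1.53 and those of the liver libraries 0.605 to 0.770, so the choice shifts the spleen against the liver for every gene. The median log2 difference of the liver from the spleen over all genes tested was -0.21 with TMM and -1.40 with totals alone. Levels below are means of 4 libraries ± SD in CPM with TMM. Nr1d2 was at 64.2 ± 6.59 in the spleen and at 205 ± 29.5 in the kidney, the next lowest organ, a log2 difference of 1.67 (adjusted p = 8.01e-07, edgeR quasi-likelihood fit, Benjamini-Hochberg adjustment, n = 4 libraries an organ). Clock was at 37.8 ± 7.53 in the spleen and 93.2 ± 13.2 in the kidney. Per2 was at 9.71 ± 2.12 in the spleen and 34.7 ± 17.2 in the heart. The ranges of the spleen and of the next organ did not overlap for these 3 genes.

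In the fit of all 20 libraries, a member was called different between a pair of organs where the adjusted p was below 0.1 and the levels differed over 2-fold. The small intestine exceeded the spleen for 8 members (50.4% of the 23159 genes tested were called between these organs), the liver exceeded it for 7 and fell below it for 1 (53%), the kidney exceeded it for 7 and fell below it for 1 (51.2%), and the heart exceeded it for 8 (53.3%). The member below the spleen level in both the liver and the kidney was Arntl. Of the other pairs, the small intestine differed from the liver in 4 members (47.7% of all genes), from the kidney in 3 (47%) and from the heart in 4 (54.4%). The liver differed from the kidney in 3 (35.6%) and from the heart in 4 (45.5%), and the kidney differed from the heart in 2 (39%). With TMM, the share of members called was thus above that of all genes only in the 4 comparisons with the spleen. With library totals alone, the members called against the spleen were 5 for the small intestine (56.1% of all genes), 6 for the liver (66.4%), 7 for the kidney (52.8%) and 6 for the heart (58.4%), so that the share was above that of all genes only for the kidney and the heart. Clock was then called against the spleen only for the small intestine, and Nr1d2 no longer for the liver. Without the kidney WT replicate 2 library, 9 members differed between the kidney and the spleen, Npas2 being added at a log2 difference of 1.36 ± 0.53 (SE, adjusted p = 0.0390, edgeR quasi-likelihood fit, Benjamini-Hochberg adjustment), against 48.3% of all genes. Without that library the kidney differed from the heart in 1 member (36.8% of all genes), from the liver in 2 (32.99%) and from the small intestine in 2 (42.95%). In bulk tissue, fewer cells of a type and less RNA per cell cannot be told apart.

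Per1, a Period gene that also answers to glucocorticoid, had means from 22.4 ± 6.69 in the spleen to 53.8 ± 36.99 in the liver with TMM. Per exon length, its means instead ran from 13.1 ± 8.42 TPM in the small intestine to 24.8 ± 22.7 TPM in the heart. The spleen (15.2 ± 4.86 TPM) then lay just above the liver (14.9 ± 9.36 TPM). In CPM, no neighbours in the order of organs were called different (adjusted p from 0.376 to 0.929, edgeR quasi-likelihood fit, Benjamini-Hochberg adjustment). Npas2, the paralogue of Clock, was highest in the small intestine. It was at 12.5 ± 4.54 in the small intestine and 2.74 ± 1.99 in the heart, a log2 difference of 2.19 (adjusted p = 0.00710, edgeR quasi-likelihood fit, Benjamini-Hochberg adjustment), and at 0.626 ± 0.436 in the kidney, 0.352 ± 0.190 in the liver and 0.324 ± 0.0885 in the spleen. It had no count in the kidney WT replicate 2 library, which allows up to 3 counts or 0.124 CPM. Ciart, the repressor with 3 E-boxes in its promoter window, was highest in the liver, 39.5 ± 21.1 against 12.9 ± 7.39 in the heart, a log2 difference of 1.57 (adjusted p = 0.0126, edgeR quasi-likelihood fit, Benjamini-Hochberg adjustment), although the ranges of these organs overlapped. With library totals alone, Ciart was still highest in the liver but was no longer called between the liver and the heart.

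Arntl was at 14.2 ± 10.6 in the small intestine, 11.4 ± 1.57 in the spleen and 10.1 ± 7.59 in the heart, neighbours that were not called different, and lower in the liver (4.51 ± 2.40) and kidney (3.40 ± 2.28). The difference of 1.23 on the log2 scale between the heart and the liver was called (adjusted p = 0.0959, edgeR quasi-likelihood fit, Benjamini-Hochberg adjustment), although the libraries of these organs overlapped. Per2 and Per3 were highest in the liver, at 117 ± 18.5 and 105 ± 20.8, Nr1d1 in the small intestine, at 57.1 ± 24.2, Nr1d2 in the liver, at 275 ± 29.3, and Dbp in the heart, at 64.2 ± 32.4. In TPM, the highest mean was instead in the spleen for Arntl, in the small intestine for Per2 and in the heart for Nr1d2. None of the top values in CPM was called different from that of the next organ (adjusted p from 0.148 to 0.998, edgeR quasi-likelihood fit, Benjamini-Hochberg adjustment). Per exon length, Nr1d2 had the highest mean of the members in all 5 organs, from 45.3 ± 6.71 TPM in the spleen to 118 ± 25.5 TPM in the heart, and Npas2 the lowest in all organs but the small intestine, where Arntl, at 5.07 ± 4.14 TPM, was below Npas2 at 6.90 ± 3.30 TPM.

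**Figure D2:**
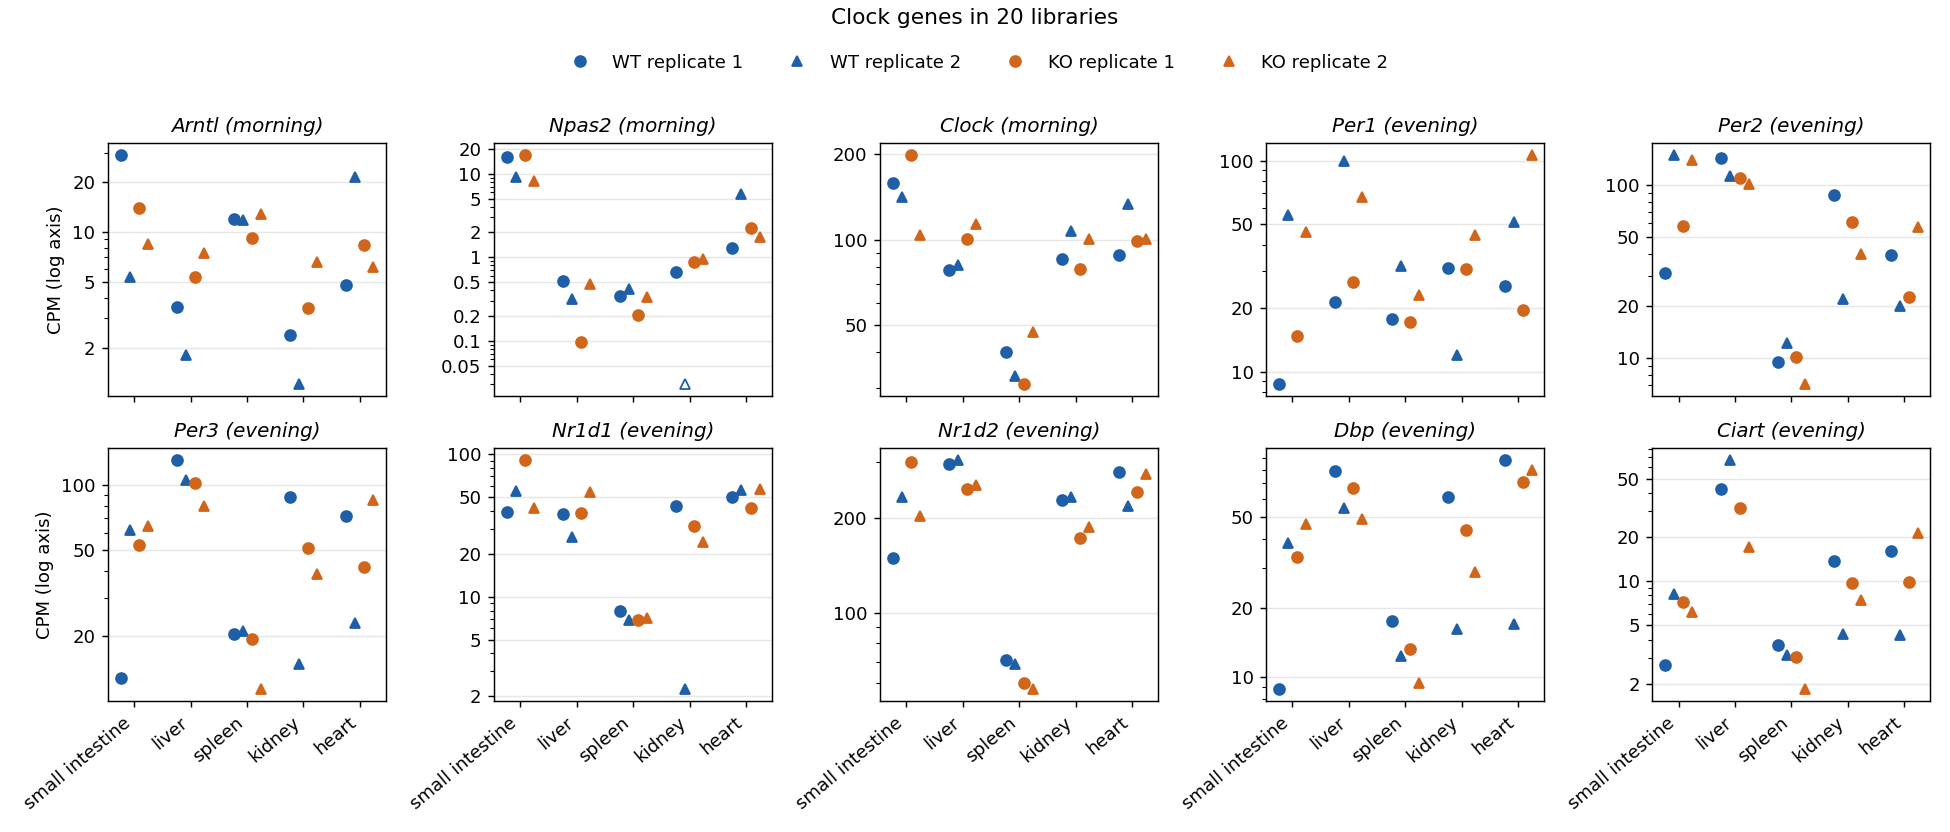
Each panel shows 1 clock gene, with the organ on the x axis and CPM on a log y axis. Blue points are WT and orange points KO libraries, circles replicate 1 and triangles replicate 2, and the open triangle stands for the kidney library with no count of Npas2, drawn at 0.03. With this TMM scaling the spleen has the lowest mean for most genes, although single libraries of other organs lie lower for some, such as Per1 and Nr1d1. The 4 libraries of an organ lie closer together for Nr1d2 and Clock than for Per1.

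The comparison of KO with WT asked whether loss of Nsun6 went with a change of clock gene levels within an organ. No member was called in any organ by the same thresholds (edgeR quasi-likelihood fit, Benjamini-Hochberg adjustment, 2 against 2 libraries). Of all genes tested, 0.0509% were called in the liver, 0.223% were in the spleen, and 0% were in any of the small intestine, kidney and heart. At an unadjusted p under 0.05, 3 of the 9 members tested in the liver passed (4.7% of all genes there), and 0 of 10 members in each of the other organs, where 5.14% of genes passed in the spleen, 2.39% in the small intestine, 0.703% in the heart and 0.638% in the kidney. DESeq2 also called 0 members in each organ. Npas2 was too low in the liver to be tested.

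In the liver, Ciart was at 42.2 and 67.2 CPM in WT and 31.5 and 17.1 CPM in KO. Both KO values lay below both WT values, and the log2 fold change was -1.17 ± 0.35 (SE) with an adjusted p of 0.947 (edgeR quasi-likelihood fit, Benjamini-Hochberg adjustment). Arntl was at 3.52 and 1.80 CPM in WT and 5.34 and 7.40 CPM in KO. Here the KO libraries lay above the WT libraries, with a log2 fold change of 1.25 ± 0.41 (SE) and an adjusted p of 0.955 (edgeR quasi-likelihood fit, Benjamini-Hochberg adjustment). Clock, named after its values were seen as the third member with an unadjusted p under 0.05, was at 77.9 and 81.3 CPM in WT and 100.4 and 114 CPM in KO, again higher in KO, with a log2 fold change of 0.42 ± 0.18 (SE). The groups did not overlap for 7 of the 9 members in the liver, against 33.3% of all genes. Arntl, Clock and Nr1d1 were higher in both KO libraries, and Per2, Per3, Nr1d2 and Ciart were lower in both. Thus the 2 morning genes tested lay higher and 4 of the 7 evening genes lower in KO without overlap, Nr1d1 standing against the other evening genes. The members of one feedback loop are not independent of each other. When low counts were not filtered out, Ciart alone was called in the liver (adjusted p = 0.000105, edgeR quasi-likelihood fit, Benjamini-Hochberg adjustment, 0.477% of all genes), and with WT replicate 1 left out Arntl alone was, at 1.79 on the log2 scale (adjusted p = 0.0855, 1.25% of all genes), a call for which 1 WT library stood alone and was assumed to vary like the KO pair. The liver WT replicate 1 library stood apart, with a summed level of the 4 liver markers of 171349 CPM against 292998 to 339399 CPM in the other 3 liver libraries, Alb being the most abundant. Its part in the liver values was not tested.

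The 21 other clock genes, a list of further clock components and outputs, were all tested in the liver, and none was called. Among those with an unadjusted p under 0.05 was Nfil3, a repressor that acts on the same D-box as Dbp, at 11.97 and 9.39 CPM in WT and 24.4 and 28.2 CPM in KO, with a log2 fold change of 1.29 ± 0.23 (SE) and an adjusted p of 0.344 (edgeR quasi-likelihood fit, Benjamini-Hochberg adjustment). Usp2, a deubiquitinase gene under clock control, was at 29.6 and 60.04 CPM in WT and 18.5 and 20.2 CPM in KO, and Wee1, a cell cycle kinase gene under clock control, at 28.2 and 27.7 CPM in WT and 16.01 and 17.8 CPM in KO. The KO values of Nfil3 lay above the WT values without overlap, and those of Usp2 and Wee1, which also had an unadjusted p under 0.05, lay below them. These 3 genes were named after their values were seen.

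In the spleen, 3 of 10 members did not overlap between the groups, all lower in KO, where 31.3% of all genes did not overlap. Per3 was at 20.5 and 21.2 CPM in WT and 19.3 and 11.3 CPM in KO, with a log2 fold change of -0.42 ± 0.26 (SE). Nr1d2 was at 70.8 and 68.8 CPM in WT and 60.1 and 57.2 CPM in KO, with a log2 fold change of -0.21 ± 0.14 (SE). Ciart, the third such gene, was at 3.68 and 3.13 CPM in WT and 3.05 and 1.84 CPM in KO. At the liver share given above, liver RNA would make up 0.420 CPM of its WT replicate 2 value. That exceeds the distance of this value from KO replicate 1, so the non-overlap of Ciart is not secure. Of all 10 members, 9 had a negative log2 fold change in the spleen and 1 a positive one, with a median of -0.28 against a median of 0.0072 over all genes tested. The 9 were all 7 evening genes, with a median of -0.30, and 2 of the 3 morning genes. The KO replicate 2 library, with the lowest Per2, Per3, Dbp and Ciart and the highest Clock of the spleen, also differed in base composition, its genes of high GC content being lower relative to those of low GC content (-0.35 in log2 CPM centred on the organ) than in the other 3 spleen libraries (0.023 to 0.21). Without it, all 10 members had a negative log2 fold change, with a median of -0.18. The part of base composition in its values was not tested. Btrc, one of the other clock genes, had an unadjusted p under 0.05 there and was higher in KO. Without WT replicate 2, the library that held liver RNA, the log2 fold change was -0.36 for Per3 and -0.20 for Nr1d2, and no member was called. All 3 genes of a red cell list were detected in the spleen, with a summed level of 9234 and 12667 CPM in WT and 21044 and 23180 CPM in KO, with no overlap, and its part in the spleen values was not tested.

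In the kidney, 3 of 10 members did not overlap (21.5% of all genes). Arntl was at 2.39 and 1.20 CPM in WT and 3.49 and 6.53 CPM in KO, with a log2 fold change of 1.43 ± 0.62 (SE) and an adjusted p of 0.9999 (edgeR quasi-likelihood fit, Benjamini-Hochberg adjustment), and Npas2 was also higher and Nr1d2 lower in both KO libraries. Npas2 had no count in WT replicate 2 and lay between 0.663 and 0.963 CPM in the other kidney libraries, so its non-overlap is not secure. Per1 was at 31.1 and 11.9 CPM in WT and 30.7 and 44.3 CPM in KO, with a log2 fold change of 0.76 ± 0.55 (SE), and its groups overlapped. With the WT replicate 1 library left out, so that WT replicate 2 stood alone for WT and was assumed to vary like the KO pair, 7 kidney members and 16.1% of all genes tested were called, whereas with WT replicate 2 left out no member was called and the log2 fold changes of Arntl and Per1 were 1.04 and 0.24.

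In the small intestine and heart, every member overlapped between the genotypes, as did all but 25.2% and 17.2% of the genes tested in these organs. The 2 members with the smallest p in the small intestine were Nr1d1, at 39.1 and 55.5 CPM in WT and 91.8 and 42.1 CPM in KO, and Dbp, at 8.81 and 38.6 CPM in WT and 33.2 and 46.5 CPM in KO. Their log2 fold changes were 0.45 ± 0.47 (SE) and 0.72 ± 0.76 (SE), and in both cases the WT replicate 1 library was the lowest. Without KO replicate 1, the highest library for Nr1d1, the log2 fold change of Nr1d1 was -0.18. In the heart, Arntl was at 4.79 and 21.3 CPM in WT and 8.32 and 6.12 CPM in KO and Npas2 at 1.31 and 5.66 CPM in WT and 2.25 and 1.73 CPM in KO. The WT replicate 2 library was the highest for both, and the log2 fold changes were -0.90 ± 0.64 (SE) and -0.87 ± 0.70 (SE), which turned positive without that library. Dbp alone was called in the heart when WT replicate 1 was left out (0.12% of all genes), again with a single WT library assumed to vary like the KO pair. Nr1d2 was lower in both KO libraries of the liver, spleen and kidney but overlapped in the other organs.

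**Figure D3:**
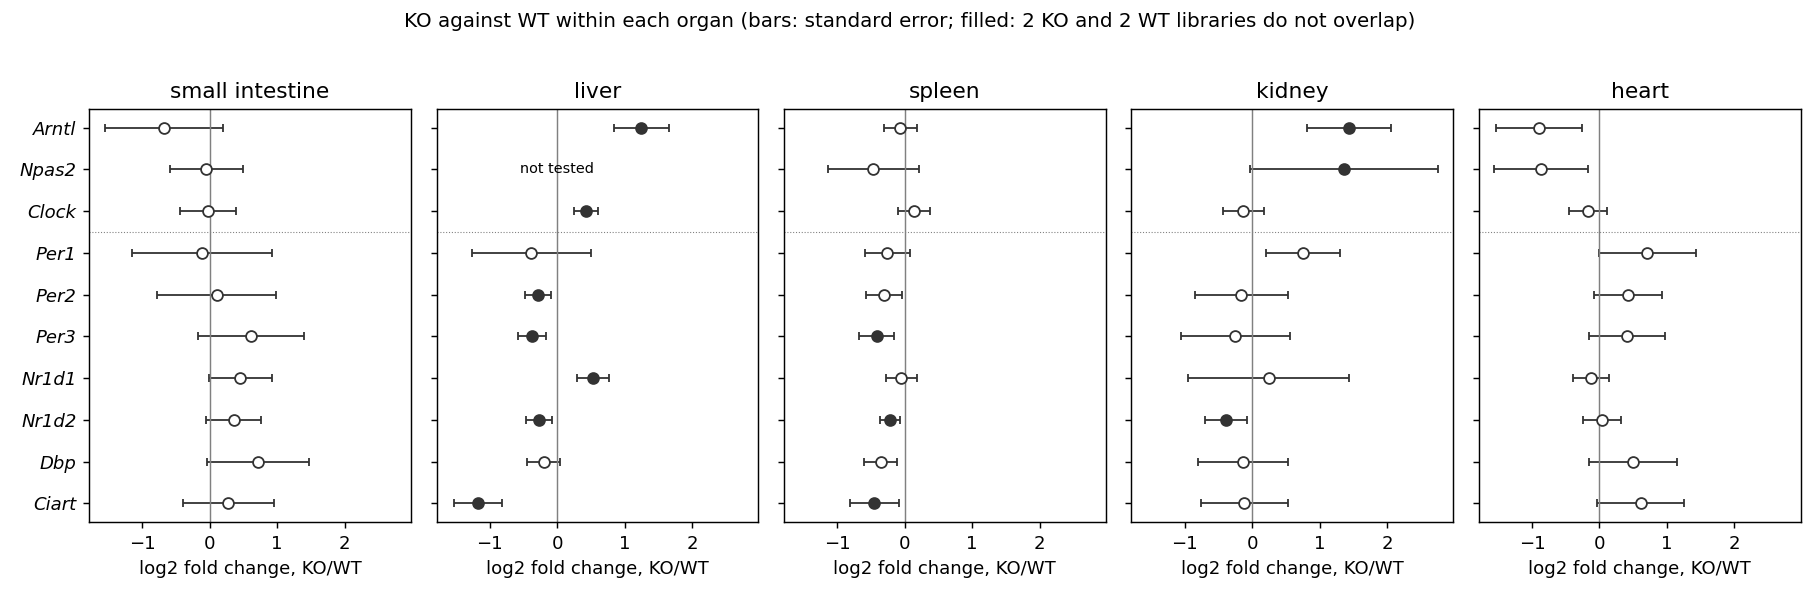
Each panel is 1 organ, with the clock genes on the y axis, the 3 morning genes above the dotted line, and the log2 fold change of KO over WT on the x axis. Points are edgeR estimates with bars of 1 standard error, filled where the 2 KO and 2 WT libraries do not overlap. In the liver 7 points are filled, in the spleen and kidney 3 each, and in the small intestine and heart none.

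Over all organs, with organ as a term, the log2 fold changes of KO against WT of the 10 members lay between -0.16 (Ciart) and 0.23 (Nr1d1), each smaller than its standard error. None was called, and 0.00432% of all genes were (edgeR quasi-likelihood fit, Benjamini-Hochberg adjustment). Arntl had a log2 fold change of 0.19 ± 0.38 (SE), Npas2 -0.10 ± 0.43 (SE) and Clock 0.057 ± 0.13 (SE). Per1 had 0.16 ± 0.41 (SE), Per2 -0.032 ± 0.29 (SE) and Per3 0.008 ± 0.32 (SE). Dbp had 0.12 ± 0.31 (SE) and Nr1d2 -0.084 ± 0.12 (SE). The genotype difference was not called as varying between organs for any member in the interaction test, in which 0% of all genes passed an adjusted p under 0.1 and 2.31% an unadjusted p under 0.05. No member was under 0.05 unadjusted in that test, the lowest being Arntl.

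To place each library on the axis between evening and morning genes, log2 CPM values (with a prior count of 2) were centred on the 4 libraries of an organ, and the mean of the 3 morning genes was subtracted from the mean of the 7 evening genes. For the small intestine this difference was -1.77 and 1.08 in WT and -0.23 and 0.92 in KO, so that the replicate 2 libraries of both genotypes lay toward the evening side. Behind the low value of WT replicate 1 stood Arntl, at 29.1 and 5.36 CPM in WT and 13.8 and 8.41 CPM in KO, and Per3, at 12.8 and 61.9 CPM in WT and 52.8 and 64.3 CPM in KO. That library held the most Arntl and the least Per1, Per2, Per3, Nr1d1, Nr1d2, Dbp and Ciart of the 4. For the heart it was 0.85 and -1.63 in WT and -0.22 and 0.999 in KO, so that the WT library numbered 2 was the most morning-like of the heart, whereas the one numbered 2 was the most evening-like of the small intestine. Dbp was at 88.9 and 16.96 CPM in WT and 70.8 and 80.2 CPM in KO there, and Per3 at 72.1 and 22.9 CPM in WT and 41.9 and 84.99 CPM in KO. WT replicate 2 of the heart held the most Arntl, Npas2 and Clock and the least Per2, Per3, Nr1d2, Dbp and Ciart of the 4 heart libraries, whereas its Per1 was not the lowest and its Nr1d1, at 56.4 CPM, was the second highest after 56.7 CPM in KO replicate 2. Both of these outlying libraries also carried markers of other cells. In the small intestine, 4 lymphocyte markers of the spleen list summed to 219.6 and 16.1 CPM in WT and 2.28 and 41.7 CPM in KO, and all 4 were detected in WT replicate 1, Ms4a1 being the most abundant at 98.2 CPM. For the heart the same list summed to 1.49 and 22.02 CPM in WT and 1.80 and 2.30 CPM in KO, and 3 fat cell markers, Adipoq the most abundant, to 1.12 and 79.2 CPM in WT and 2.17 and 26.02 CPM in KO. The summed levels of atrial and of lung markers were also highest in WT replicate 2 of the heart. The atrial list summed to 598 and 1129 CPM in WT and 18.9 and 379 CPM in KO. The lung list summed to 36.2 and 54.3 CPM in WT and 8.55 and 28.9 CPM in KO. Both sums were lower in KO without overlap, but the lung genes differed. Sftpc was highest in WT replicate 1, at 8.08 and 6.93 CPM in WT and 1.65 and 6.54 CPM in KO. Sftpa1 overlapped between the genotypes. The part of these cells in the clock gene values was not tested.

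For the liver the difference was -0.02 and 0.64 in WT and 0.082 and -0.70 in KO. For the spleen it was 0.049 and 0.11 in WT and 0.34 and -0.50 in KO, the narrowest range of the 5 organs. For the kidney it was 0.68 and 0.089 in WT and -0.032 and -0.74 in KO. In each of these 3 organs KO replicate 2 was the most morning-like library, although in the kidney WT replicate 2 lay below it when Npas2 was left out. No number kept its side over the organs: the difference was above 0 in 3 of 5 organs for WT replicate 1, 4 of 5 for WT replicate 2, 2 of 5 for KO replicate 1 and 2 of 5 for KO replicate 2. The spleen value of WT replicate 2 includes the liver share given above, and the kidney value of WT replicate 2 rests on Npas2 at 0 and becomes -0.68 when Npas2 is left out.

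**Figure D4:**
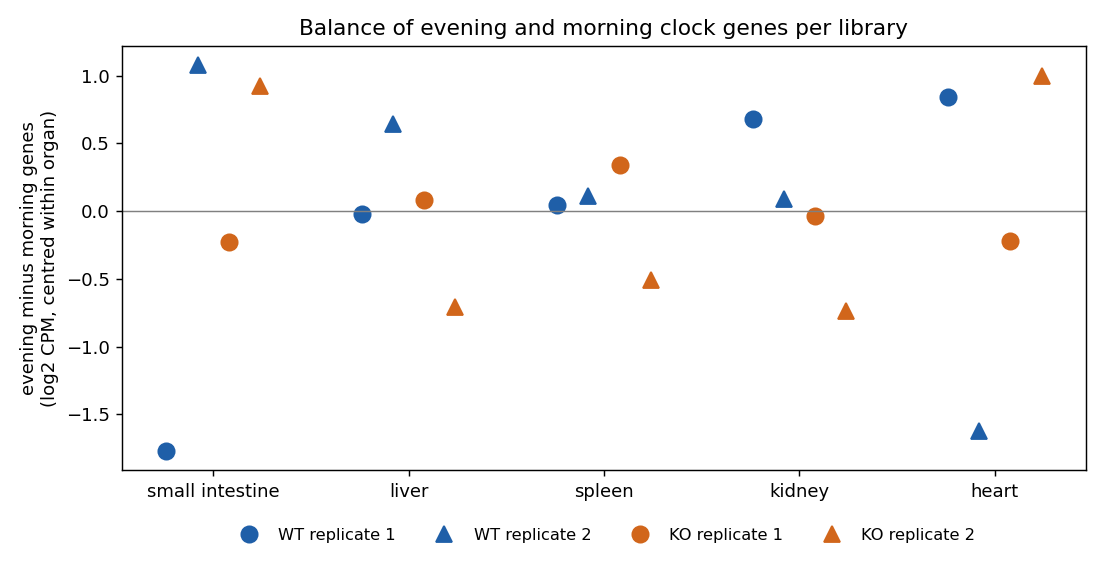
For each organ on the x axis, the mean of the 7 evening genes minus the mean of the 3 morning genes (log2 CPM centred within the organ) is drawn for each of the 4 libraries. The small intestine and heart span the widest ranges, and WT replicate 2 (blue triangles) lies at the top in the small intestine and at the bottom in the heart.

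Among the centred values of the 20 libraries, the evening genes varied together. Of 21 pairs of evening genes, 20 had a positive Pearson correlation, with a median of 0.51, and the strongest were Per3 with Dbp (0.93) and Per2 with Per3 (0.92). The 3 pairs of morning genes were all positive, with a median of 0.49. Of 21 pairs of an evening and a morning gene, 6 were positive, with a median of -0.20, and the most negative were Clock with Per2 (-0.64) and Arntl with Nr1d2 (-0.61). The most positive of these was Npas2 with Nr1d1 (0.78), and Arntl and Nr1d1 were also positive (0.41). These are descriptions over libraries that share organs and, for the kidney, 1 library of unlike base composition.

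Whether the clock genes of libraries with the same number differed alike in several organs was described next. The difference between libraries numbered 2 and 1 was set side by side between organs, for 10 pairs of organs in each genotype. In KO, its sign was shared by 9 of 9 members between the liver and spleen (Pearson correlation over members 0.78, over all genes 0.18), by 8 of 10 members between the spleen and kidney (0.82, over all genes 0.23) and by 7 of 9 members between the liver and kidney (0.67, over all genes 0.17). In these organs KO replicate 2 had more Arntl, Clock and Per1 and less Per2, Per3, Dbp and Ciart than KO replicate 1. The difference of genes of high from genes of low GC content (log2 CPM centred on the organ) also separated these KO libraries. From KO replicate 1 to 2 it fell for the spleen, 0.21 to -0.35, and the kidney, 0.50 to 0.15. For the liver it rose, 0.039 to 0.090. Clock has the lowest GC content of the members, Dbp and Per1 the highest. The part of base composition in the KO agreement was not tested. The small intestine and heart shared a correlation of 0.82 in KO with 6 of 10 members of the same sign, but in WT one of -0.73 with 2 of 10 members. The other 6 pairs of organs in KO had 3 members each of the same sign. In WT, the liver and spleen had 4 of 9 members of the same sign but a correlation of 0.66 (over all genes 0.14), and the spleen and kidney had 3 of 10 members and a correlation of -0.069 (over all genes 0.098), the kidney WT replicate 2 library entering the second of these, and no pair of organs in WT had more than 6 members of the same sign.

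Per1 was the member that differed most between libraries numbered 2 and 1 in the fits over all organs. In the small intestine it was at 8.69 and 55.5 CPM in WT and 14.8 and 45.8 CPM in KO. In the liver it was at 21.4 and 100.04 CPM in WT and 26.7 and 67.2 CPM in KO. The libraries numbered 2 were higher than those numbered 1 in both organs, and the same held in the spleen, at 17.7 and 31.6 CPM in WT and 17.3 and 23.02 CPM in KO, and in the heart, at 25.5 and 50.99 CPM in WT and 19.6 and 107 CPM in KO. Only in the kidney WT pair, 31.1 and 11.9 CPM, was replicate 2 lower, in the library of unlike base composition. In the fit over all organs, the log2 difference of replicate 2 against replicate 1 was 1.22 ± 0.44 (SE) in WT (adjusted p = 0.525) and 1.29 ± 0.43 (SE) in KO (adjusted p = 0.99999, edgeR quasi-likelihood fit, Benjamini-Hochberg adjustment). No member was called in either genotype, where 0.0302% and 0.00864% of all genes were. Per1 was the 1 member with an unadjusted p under 0.05 in each genotype, where 8.6% and 3.86% of all genes passed.

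The log2 difference of replicate 2 against 1 of the other members lay between -0.72 (Dbp) and 0.12 (Clock) in WT and between -0.13 (Dbp) and 0.32 (Per2) in KO. In the test of whether this difference varied between organs, 1008 genes (4.35%) but no member had an adjusted p under 0.1. Per2 had an adjusted p of 0.173 and Per1 of 0.233 (edgeR quasi-likelihood fit, Benjamini-Hochberg adjustment). Per2 was higher in the replicate 2 libraries of the small intestine and lower in those of the kidney, in both genotypes. Such opposite differences between a pair of organs, without overlap of the numbers, were present for 5 of 10 members and for 39.9% of all genes tested. It was at 31.1 and 149.9 CPM in WT and 58.1 and 140.5 CPM in KO in the small intestine. In the kidney it was at 87.3 and 21.8 CPM in WT and 60.9 and 39.8 CPM in KO. Per2 alone was called in this test without WT replicate 2 of the heart (2.62% of all genes) or without KO replicate 2 of the heart (2.58%). Npas2, Per1, Per2 and Nr1d1 were called without KO replicate 2 of the kidney, where 15.1% of all genes were.

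Glucocorticoid-responsive genes, a list of 8 that includes Tsc22d3 and Fkbp5, tended the same way as Per1. In WT, all 8 were higher in replicate 2, with a median log2 difference of 1.16 against -0.032 over all genes, and 1 was called. That gene was Tsc22d3, which encodes a leucine zipper protein induced by glucocorticoid, with a log2 difference of 1.42 ± 0.21 (SE) (adjusted p = 0.0157, edgeR quasi-likelihood fit, Benjamini-Hochberg adjustment). The fit took the organs as independent, although libraries with the same number may come from the same animal. Tsc22d3 was at 33.8 and 160.4 CPM in WT and 62.3 and 201 CPM in KO in the small intestine. In the spleen it was at 118 and 246 CPM in WT and 109 and 172 CPM in KO. In KO, 7 of 8 genes of the list were higher, with a median of 0.75 against 0.0062 over all genes, and none was called. Tsc22d3 was higher in replicate 2 in 10 of 10 pairs of an organ and genotype, by 1.58-fold to 4.75-fold, and Per1 in 9 of 10. Fkbp5, a chaperone of the steroid receptor complex, was higher in 9 of 10 pairs, by a median of 1.96-fold, and Klf9 in 9 of 10, by a median of 1.43-fold. Of the other 5 genes of the list, Sgk1 and Mt2 were higher in replicate 2 in 8 of 10 pairs each, Cdkn1a in 7, and Mt1 and Zbtb16 in 6 each. These counts of pairs were not set against those of all genes, so they do not show whether such agreement is unusual. The genes of this list were named after their values were seen, and their part in the Per1 values was not tested. In the small intestine the replicate numbers also differed in gut position. In the heart the replicate 2 libraries had larger total counts. The fat cell marker Adipoq was there at 0.56 and 45.4 CPM in WT and 1.57 and 12.5 CPM in KO. The difference of long from short genes there was -0.26 and 0.21 in WT and -0.44 and 0.49 in KO (log2 CPM centred on the organ). The part of these differences in the values of Per1 and this list was not tested. Of 8 temperature-responsive genes, 5 were higher in replicate 2 in WT (median log2 difference 0.088) and 3 in KO (median -0.19). Of 8 immediate early genes, 5 were higher in replicate 2 in WT (median 0.13) and 1 in KO (median -0.34). No gene of these 2 lists was called.

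**Figure D5:**
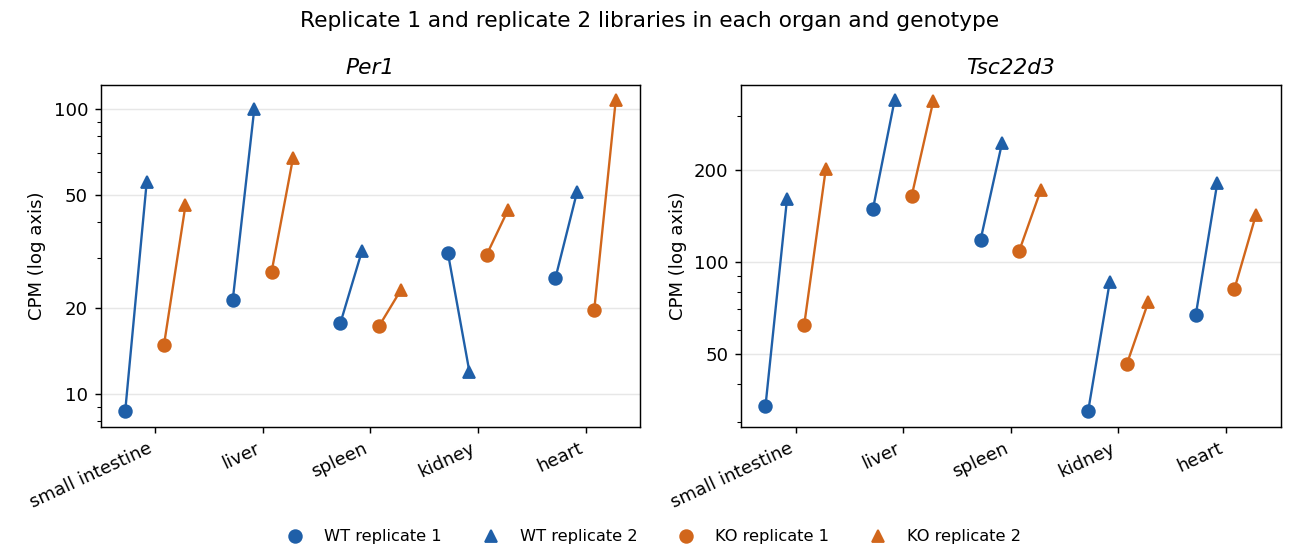
CPM of Per1 (left) and Tsc22d3 (right) on log y axes for each organ, with lines joining the libraries numbered 1 (circles) and 2 (triangles) within WT (blue) and KO (orange). The lines join names and not known pairs of animals. Tsc22d3 is higher in replicate 2 in all 10 cases, and Per1 in all but the kidney WT libraries.

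None of the 21 other clock genes was called in the fits over all organs. For replicate 2 against 1 in WT, the 3 with the smallest p were Timeless (-0.73 ± 0.25 log2 difference ± SE), Nampt (0.47 ± 0.18) and Csnk1e (-0.59 ± 0.25). In KO they were Rora (0.48 ± 0.16), Arntl2 (-0.49 ± 0.36) and Wee1 (0.43 ± 0.32). For KO against WT they were Btrc (0.34 ± 0.13), Nampt (-0.24 ± 0.15) and Fbxl21 (0.36 ± 0.23). The adjusted p was at least 0.520 in all 9 cases (edgeR quasi-likelihood fit, Benjamini-Hochberg adjustment).

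Each of 13276 other genes was ranked by the Pearson correlation of its centred values with the difference between evening and morning genes over the 20 libraries. The highest were Arfip2 (0.82), Gm28370 (0.80), Usp40 (0.79), 8430422M14Rik (0.79), Ccdc107 (0.77), Fam102a (0.76), Cyp27a1 (0.76) and Bbs2 (0.76). Tef, a D-box factor related to Dbp, was ranked 9 (0.76), its relative Hlf 24 (0.71), Usp2 52 (0.67), Bhlhe40 66 (0.66) and Cry2 193 (0.60). The lowest were Gcnt1 (-0.86), Gstcd (-0.83), Ckap4 (-0.82), Papss1 (-0.79), Cep55 (-0.78), Cldn1 (-0.78), Far1 (-0.78) and Ube2cbp (-0.78), and Nfil3 stood at -0.56. The correlation is a description of libraries that share organs, and the list changed with the organs used, since without the small intestine 2 of these 16 genes were again among the 16. The percentiles 1 and 99 of all genes ranked were -0.65 and 0.62.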

How the data were processed

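Raw read counts per gene and the exon length of each gene were deposited by the authors in a single table of the 20 libraries. Per the labels and the methods of the study, reads were trimmed with cutadapt, aligned to mm10 with HISAT2 2.1.0 and counted with featureCounts 2.0.1 on Ensembl gene models of GRCm38. The methods describe a stranded library and strand-aware counting restricted to proper pairs, whereas the command stored with the counts sets no option for strand or for pairs. Which of them made the deposited counts was not settled, and without strand the reads of overlapping genes on opposite strands cannot be told apart. Between 54.9% and 59.8% of the counts from 10 to 50 were even. Columns of other series or of the authors' comparisons were not found.

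The counts were tested in edgeR 4.0.16 (R 4.3.3) by a quasi-likelihood fit with TMM normalization, filterByExpr and robust dispersion, separately for each organ (KO against WT) and over all 20 libraries (genotype or replicate number, with organ as a term, and their interactions with organ). A gene was called at a Benjamini-Hochberg adjusted p below 0.1 with a fold change above 2, and in interactions at the adjusted p alone. CPM used TMM over all libraries, and TPM the deposited exon lengths. Log2 CPM values had a prior count of 2. Alternatives used DESeq2 1.42.0 and limma 3.58.1, and figures Python 3.11.15 with pandas 2.3.3, numpy 2.4.6 and matplotlib 3.10.9. The fits were tested on simulated data.

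The members and the gene lists were chosen with earlier results of these data known. Besides the 10 members, the genes named were the 2 members with the smallest p in each organ, the 3 other clock genes with the smallest p in each fit over all organs, and the 8 genes most and the 8 least like the balance of evening and morning genes. All further genes were named after their values were seen, apart from Nsun6 and markers of organs and cell types. Total counts ranged from 15897446 to 44508197, and precision for the lowest member, Npas2, was limited by counting error, which the 3-count limit given for its 0 covers alone. 1 gene of the list of other clock genes is not reported here.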

Additional observations from a re-analysis of the deposited data

Results flagged for a closer look

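For 5 clock genes, both libraries numbered 2 lay above both libraries numbered 1 in at least 1 organ and below them in another, with no overlap over WT and KO together, which was also so for 39.9% of the 23159 genes tested, so that 5 of 10 is no result about the clock genes. Values are log2 ratios of the mean of the replicate 2 libraries to the mean of the replicate 1 libraries over WT and KO, 4 libraries an organ. Dbp was at 1.02 in the small intestine but at -1.22 in the kidney, -0.50 in the liver and -0.50 in the spleen. Per2 was at 1.70 in the small intestine and -1.27 in the kidney, and Per3 at 0.94 and -1.37. Nr1d1 was at 0.30 in the heart and -1.49 in the kidney. Clock was at -0.55 in the small intestine, 0.32 in the heart and 0.34 in the kidney. The variation of the replicate difference between organs was tested for these genes by an interaction term in the fit of all 20 libraries, and none passed an adjusted p of 0.1, the lowest being Per2 at 0.173 (edgeR quasi-likelihood fit, Benjamini-Hochberg adjustment). The kidney values include the WT replicate 2 library of unlike base composition, and those of the small intestine a difference in gut position between the numbers.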

How the results depend on the processing

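No member was called for KO against WT in the small intestine, spleen or over all organs under any alternative run, and the calls in the liver, kidney and heart under single alternatives are given below. The number of all genes called for KO against WT changed more. With DESeq2 the spleen had 219, the small intestine 61, the liver 56, the heart 2 and the fit over all organs 2. Without a filter on low counts the spleen had 313, the liver 122 (with 1 member, Ciart) and the heart 13, and with at least 10 counts in every library 105 in the spleen and 0 over all organs. One fit of all 20 libraries called 0 genes for the liver and 0 for the spleen, and an adjusted p under 0.05 left 0 in the spleen. With the replicate number as a block, 20 genes were called in the liver and 6 in the heart, and no member in any organ, so the block changed no member's call. Same-numbered WT and KO libraries deviated together with correlations of 0.57 in the small intestine, 0.37 in the heart, 0.13 in the kidney, 0.038 for liver and 0.0071 for spleen, over 2 pairs an organ, and the labels do not say what a number stands for. The count columns of both replicate 2 libraries of the heart, and no others, carried the tag pre, whose meaning was not given. Both also had larger total counts than the replicate 1 libraries of the heart. With 1 library left out at a time, 2 to 205 genes were called in the liver with 0 to 1 members (Arntl, without WT replicate 1), 0 to 371 in the spleen (the most without WT replicate 1), 1 to 2938 in the kidney with 0 to 7 members (the most without WT replicate 1), 0 to 22 in the heart with 0 to 1 members (Dbp, without WT replicate 1) and 0 to 2 over all organs, and the genotype by organ interaction called 0 to 71. The log2 fold change of KO against WT then ran from -1.56 to 0.57 for Arntl and -1.51 to 0.58 for Npas2 in the heart (positive without WT replicate 2), from -0.18 to 0.86 for Nr1d1 in the small intestine, and over all organs from -0.016 to 0.10 for Clock, -0.030 to 0.30 for Dbp, -0.35 to 0.17 for Npas2, -0.14 to 0.40 for Per1, -0.21 to 0.14 for Per2 and -0.14 to 0.25 for Per3. For replicate 2 against 1, DESeq2 called 112 genes in WT and 12 in KO, at least 10 counts in every library left 1 and 0, an adjusted p under 0.05 left 1 in KO, and leaving out 1 library gave 0 to 10 in WT and 0 to 5 in KO. The ranges over left-out libraries in WT were -1.05 to 0.25 for Arntl, -0.60 to 0.16 for Ciart, -0.68 to 0.45 for Npas2, -0.11 to 0.14 for Nr1d2 and -0.53 to 0.17 for Per2, and in KO -0.10 to 0.55 for Arntl, -0.52 to 0.19 for Ciart, -0.046 to 0.26 for Clock, -0.29 to 0.030 for Dbp, -0.25 to 0.32 for Npas2, -0.25 to 0.073 for Nr1d1, -0.15 to 0.10 for Nr1d2 and -0.24 to 0.22 for Per3. Per1 kept its sign in both genotypes. The replicate number by organ interaction called 360 to 3731 genes with 0 to 4 members when 1 library was left out, and 621 genes at an adjusted p under 0.05. Without the small intestine, replicate 2 against 1 called 1 gene in WT and 0 in KO, KO against WT 0 and the replicate number by organ interaction 0, and the signs turned for Arntl (0.38), Npas2 (0.23) and Nr1d2 (-0.071) in WT, for Per3 (-0.034), Nr1d1 (0.13) and Nr1d2 (0.070) in KO, and for Per3 (-0.15) and Dbp (-0.043) in KO against WT. Npas2 turned to 0.019 in WT with relative log expression size factors, and in KO against WT Per3 turned to -0.0025 with at least 10 counts and Per2 to 0.12 with limma voom and a random block, which called 0 genes. The balance of evening and morning genes without Npas2, chosen after seeing the data, was 0.25 in spleen WT replicate 2 and -0.68 in kidney WT replicate 2. With library totals in place of TMM, chosen after seeing the data, 5 members were called between the small intestine and the spleen and 1 between the kidney and the heart. Where 1 library of a genotype remained in an organ, it was assumed to vary like the other genotype. The interaction alternatives and the kidney levels without WT replicate 2 were also chosen after seeing the data. Per exon length, 5 (Per1), 6 (Nr1d2), 8 (Arntl and Clock) or at least 9 (the others) of 10 organ pairs kept their order. The cause of these changes was not tested.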

Other observations

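Immediate early genes, which respond within minutes to stimulation, were lower in KO in the heart for 8 of 8 genes of a list, with a median log2 fold change of -0.84 against -0.0090 over all genes, 3 of them at an unadjusted p under 0.05 (0.703% of all genes there) and none called (edgeR quasi-likelihood fit, Benjamini-Hochberg adjustment). Fos was at 8.70 and 27.2 CPM in WT and 5.32 and 6.54 CPM in KO, and Fosb at 2.36 and 9.02 CPM in WT and 0.450 and 2.35 CPM in KO. WT replicate 2, the heart library with the most Arntl, was the highest of the 4 for all 8 genes. Without it, with the other WT library assumed to vary like the KO pair, 5 of the 8 were lower in KO and Jun, Ier2 and Atf3 were not, the median was -0.38, and none was at an unadjusted p under 0.05, so the 8 of 8 rests on that library. Jun was at 20.5 and 69.9 CPM in WT and 32.2 and 45.4 CPM in KO. The summed level of 3 atrial markers, Myl4 the most abundant, was 598 and 1129 CPM in WT and 18.9 and 379 CPM in KO, and that of 3 lung markers, Scgb1a1 the most abundant, was 36.2 and 54.3 CPM in WT and 8.55 and 28.9 CPM in KO. Both sums were lower in KO without overlap, although Sftpa1 of the lung list overlapped between the genotypes. The part of these markers in the values of the immediate early genes was not tested. In the other organs, 1 of 8 (small intestine), 2 of 7 (liver), 3 of 8 (spleen) and 6 of 7 (kidney) of these genes were higher in KO.

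Cirbp, a cold-inducible RNA binding protein gene, was lower in the WT library numbered 2 than in that numbered 1 in each of the 5 organs, at 36.7 and 14.2 CPM in the liver and 89.4 and 54.8 CPM in the spleen. The steepest fall, from 63.4 to 14.2 CPM, was in the kidney, whose WT replicate 2 library is the one of unlike base composition. In KO, Cirbp was lower in the library numbered 2 of the small intestine, liver, spleen (70.1 and 38.7 CPM) and kidney. It was higher in that of the heart (35.0 and 51.5 CPM). In the small intestine the numbers also differed in gut position. The log2 difference of Cirbp over all organs was -1.03 ± 0.23 (SE) in WT (adjusted p = 0.362, edgeR quasi-likelihood fit, Benjamini-Hochberg adjustment) and -0.21 ± 0.23 (SE) in KO. Rbm3, the other cold-inducible gene of the list, had a log2 difference of 0.13 ± 0.18 (SE) in WT and was higher in the WT library numbered 2 of the spleen (230.3 and 301.9 CPM), kidney (89.1 and 125 CPM) and heart (80.4 and 96.9 CPM). Rbm3 was lower in that of the small intestine (188.0 and 136.8 CPM) and nearly level in the liver (76.4 and 77.6 CPM). The genes of these lists were named after their values were seen.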
